A study of Mus musculus with 34 samples.

Results

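In total, 9 genes of insulin receptor signalling and glucose transport were followed through 14 RNA-Seq libraries of immortalized mouse brown preadipocytes. They were the receptors *Insr* and *Igf1r*, the adaptors *Irs1* and *Irs2*, the phosphoinositide 3-kinase (PI3K) regulatory subunit *Pik3r1*, the kinases *Akt1* and *Akt2*, and the glucose transporters *Slc2a4* and *Slc2a1*. The genes were chosen by name, as 9 of the 23109 genes in the files, and each was represented by the transcript with the highest mean RPKM (a read count divided by transcript length and by library size) over the 14 libraries. The cells were described in the sample labels as SV40T-immortalized GR-flox/flox brown preadipocytes of C57BL/6J strain, taken from interscapular fat of newborn pups, and the labels also mention a retroviral empty or Cre vector without saying which each library received. In the first experiment, cells carried retrovirus for WT or K36M mutant histone H3.3 and were collected at day 0 (D0), D2, and D7 of adipogenesis. In the second, cells with the same WT or K36M histone also expressed ectopic PPARγ and received DMSO, labelled 0 h, or the PPARγ ligand rosiglitazone (Rosi), labelled 24 h. The paper describes 24 h of treatment for DMSO and Rosi alike, and if the label of 0 h is the true collection time, ligand and time cannot be told apart. In the third, cells carried a control (Ctrl) or an *Nsd2* knockdown (KD) shRNA and were collected at D0 and D2, and the sources used here do not say which *Nsd2* shRNA was sequenced. Every condition had 1 library, so no difference has a replicate check and no p-value was computed.

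Insulin binds the receptor tyrosine kinase encoded by *Insr*, which phosphorylates the adaptor proteins IRS1 and IRS2, and these dock PI3K through its regulatory subunit p85α, a product of *Pik3r1*. The lipid made by PI3K brings AKT kinases to the membrane, and AKT2 signalling moves vesicles that carry GLUT4, the transporter encoded by *Slc2a4*, to the surface of fat and muscle cells. GLUT1, encoded by *Slc2a1*, carries basal glucose uptake in most cells, and fibroblast-like preadipocytes respond to insulin in part through the related IGF1 receptor encoded by *Igf1r*. Adipogenesis was itself started with a cocktail that held 0.02 µM insulin, together with T3, IBMX, dexamethasone, and indomethacin for 2 days, and the methods keep insulin and T3 in the medium afterwards. The cells collected at D2 and D7 had thus been exposed to the ligand of this pathway.

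The libraries held between 12213559 and 24365867 mapped reads (median 18383782), and the ratios below carry 95% Clopper-Pearson intervals from whole reads recovered from the RPKM values. Counting error is all that such an interval covers, and each sets 1 library, not a condition, against another. *Nsd2* RPKM was 19.9 in Ctrl and 5.85 in KD cells at D0, and 29.0 and 7.01 at D2. The 6 adipocyte markers used (*Pparg*, *Cebpa*, *Adipoq*, *Plin1*, *Cidec*, and *Lpl*) summed to 226, 2601, and 2817 RPKM in WT cells at D0, D2, and D7, and to 74.4, 644, and 371 RPKM in K36M cells. In contrast, the brown markers *Ucp1*, *Cidea*, and *Dio2* were at or near 0 in all 14 libraries. *Ucp1* reached at most 0.194 RPKM (5 reads), *Cidea* 0.0973, and *Dio2* 0.0543. The other brown markers used were *Prdm16*, which reached 3.36 RPKM (522 reads), and *Ppara*, which reached 1.32 RPKM. The labelled brown identity was thus not seen in the first 3 of these transcripts at any day. The 4 measured macrophage markers summed to at most 3.11 RPKM and the 4 endothelial markers to at most 2.47 RPKM. The muscle list reached 67.7 RPKM, of which *Acta1* was 67.5, and the preadipocyte markers summed to between 50.6 and 1912 RPKM. Because these were bulk libraries, fewer differentiated cells and less RNA per cell cannot be told apart.

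The upstream sequences of *Irs1*, *Irs2*, and *Pik3r1* are shown because the adaptors and the PI3K subunit gave most of the differences between control and perturbed cells. RefSeq promoter windows (GRCm38.p6) were found for 7 of the 9 genes, all except *Insr* and *Slc2a4*, and the 250 bases before the start were searched on both strands. Capitals mark the E box CACGTG and the CCAAT box, which reads ATTGG on the other strand.
Irs2, chr8:11008930-11009179, minus strand: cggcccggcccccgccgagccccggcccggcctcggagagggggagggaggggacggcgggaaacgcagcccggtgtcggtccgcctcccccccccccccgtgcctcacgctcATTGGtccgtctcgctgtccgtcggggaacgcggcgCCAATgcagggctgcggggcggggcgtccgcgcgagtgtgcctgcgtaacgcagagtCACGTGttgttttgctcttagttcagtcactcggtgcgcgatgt
Irs1, chr1:82291440-82291689, minus strand: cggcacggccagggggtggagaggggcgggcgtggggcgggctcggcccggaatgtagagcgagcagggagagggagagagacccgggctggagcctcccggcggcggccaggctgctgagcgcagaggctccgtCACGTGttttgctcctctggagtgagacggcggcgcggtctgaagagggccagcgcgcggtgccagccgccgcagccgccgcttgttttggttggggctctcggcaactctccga
Pik3r1 first listed start, chr13:101768218-101768467, minus strand: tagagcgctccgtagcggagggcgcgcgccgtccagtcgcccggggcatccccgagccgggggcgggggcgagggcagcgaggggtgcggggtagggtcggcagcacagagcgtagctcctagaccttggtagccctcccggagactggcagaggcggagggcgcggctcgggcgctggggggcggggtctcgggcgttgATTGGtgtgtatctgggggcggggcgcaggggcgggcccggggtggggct

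Both adaptor windows held 1 E box, 44 bases before the start in *Irs2* and 115 bases before it in *Irs1*, in a group of 32851 RefSeq promoters of which 6.02% held one. The E box was added to the search after these letters had been read. CCAAT boxes, found in 33.8% of promoters, occurred at 137 and 101 bases before the *Irs2* start and at 50 bases before the *Pik3r1* start, whereas the *Irs1* window had none. GC boxes (GGGCGG, in 32.7% of promoters) numbered 2 for *Irs1*, 1 for *Irs2*, and 4 for this *Pik3r1* start. *Slc2a1* and *Igf1r* had 2 GC boxes each. The letters of a cAMP response element (TGACGTCA), a C/EBP site (TTGCNNAA), or a direct repeat of the PPARγ type (AGGTCANAGGTCA) were in none of the member windows, which held 1 FoxO match (TGTTTAC), upstream of the first *Akt1* start. All these matches are descriptions of letters, not of binding.

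By median RPKM over the 14 libraries, the order of the genes was *Akt1* (70.2), *Slc2a1* (29.8), *Irs2* (16.8), *Pik3r1* (16.0), *Akt2* (11.0), *Insr* (10.6), *Irs1* (8.87), *Igf1r* (6.08), and *Slc2a4* (0.238). The ranges of neighbours in this order overlapped in every case, and *Slc2a4* had by far the lowest median but not the lowest RPKM in WT cells at D7. *Slc2a4* and *Irs2* also varied most, from 0.0178 to 41.6 RPKM and from 3.11 to 102 RPKM. *Slc2a1* stayed within 19.4 to 58.5 RPKM and *Igf1r* within 3.36 to 12.0 RPKM. A gene was called past 2-fold when its RPKM ratio exceeded 2 in either direction and at least 1 of the 2 libraries had an RPKM of at least 1. *Slc2a4* failed that minimum in some comparisons, so 8 or 9 of the 9 genes were counted each time.

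Among the receptors, *Insr* (NM_010568, mm9 chromosome 8 from 3150922 to 3279617) had RPKM values of 10.9, 23.9, and 23.3 in WT cells at D0, D2, and D7. K36M cells had 11.1 and 23.7 at D0 and D2, then 10.8 at D7. Thus *Insr* was over 2-fold higher at D2 in both kinds of cells and was back at its D0 level in K36M cells at D7, when it was 2.16-fold lower than in WT cells (log2 ratio -1.11, interval -1.21 to -1.01). Ctrl cells had 5.16 and 14.5 at D0 and D2 and KD cells had 4.25 and 7.91, which left KD cells 1.83-fold lower at D2. In the DMSO and Rosi libraries of WT cells with ectopic PPARγ, *Insr* was 3.32 and 10.4, and K36M cells gave 3.35 and 6.21 in the same order. The DMSO libraries were thus nearly equal, and the Rosi libraries differed 1.68-fold (log2 ratio -0.75, interval -0.88 to -0.62).

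*Igf1r* (NM_010513, chromosome 7 from 75097713 to 75371484) went the other way early on. At D0, D2, and D7 it was 12.0, 6.26, and 7.20 RPKM in WT cells, while K36M cells had 11.8, 6.01, and 9.32. From D0 to D2 the log2 ratios were -0.94 (interval -1.03 to -0.85) in WT and -0.97 (interval -1.08 to -0.86) in K36M cells, just short of 2-fold in both. Ctrl cells had 8.74 and 5.82 at D0 and D2, and KD cells 5.84 and 5.74, so KD cells began at the level that Ctrl cells reached. DMSO and Rosi libraries had 6.15 and 3.77 in WT and 4.58 and 3.36 in K36M cells. As a share of the summed RPKM of both receptors, *Insr* made up 47.6%, 79.2%, and 76.4% in WT cells over the course, against 48.5%, 79.8%, and 53.7% in K36M cells.

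The adaptors behaved very differently from each other. *Irs2* (NM_001081212, chromosome 8 from 10986980 to 11008458) was 7.83, 102, and 22.9 RPKM in WT cells at D0, D2, and D7. In K36M cells it was 9.74, 41.5, and 8.96. A peak at D2 was therefore present in both, 13.0-fold over D0 in WT (log2 ratio 3.70, interval 3.59 to 3.82) and 4.26-fold in K36M cells (2.09, interval 1.97 to 2.21). Ctrl cells gave 6.46 at D0 and 88.4 at D2, a 13.7-fold difference close to that of WT cells. KD cells gave 23.0 and 37.7, which started 3.56-fold above Ctrl at D0 and ended 2.35-fold below it at D2. At D2 the control libraries WT and Ctrl differed only 1.15-fold in *Irs2*, whereas K36M lay 2.45-fold below WT. In the PPARγ cells, *Irs2* was 6.82 with DMSO and 34.3 with Rosi in WT, and 3.11 and 10.7 in K36M. Rosi cells had more in both backgrounds, 5.03-fold and 3.42-fold, and K36M cells had less in both treatments, 2.19-fold with DMSO and 3.22-fold with Rosi.

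*Irs1* (NM_010570, chromosome 1 from 82229676 to 82287991) had no peak at D2. WT cells had 7.97, 10.4, and 20.3 RPKM at D0, D2, and D7, and K36M cells had 8.61, 8.94, and 7.91. The libraries of both kinds of cells were thus close until D2, and K36M was 2.57-fold lower at D7 (log2 ratio -1.36, interval -1.47 to -1.25). In the knockdown experiment *Irs1* was 8.80 and 6.81 in Ctrl and 16.2 and 2.66 in KD cells at D0 and D2. KD cells therefore held the most *Irs1* of these 4 libraries at D0 and the least at D2, 6.09-fold less than at D0. With PPARγ it was 10.1 and 19.7 in WT cells with DMSO and Rosi, and 9.25 and 6.59 in K36M cells, so that the Rosi libraries lay on opposite sides of their DMSO libraries. The Rosi libraries differed 2.99-fold (log2 ratio -1.58, interval -1.70 to -1.46).

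The balance of the adaptors shifted towards *Irs2* at D2 in every cell population. *Irs2* was 49.6%, 90.7%, and 53.0% of their summed RPKM in WT cells at D0, D2, and D7, and 53.1%, 82.3%, and 53.1% in K36M cells. Ctrl cells had 42.3% and 92.8%, and KD cells 58.6% and 93.4%. Although KD cells at D2 had the highest share of all 14 libraries, their summed RPKM was 40.4 against 95.2 in Ctrl cells, since both adaptors were lower.

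*Pik3r1* (NM_001077495, chromosome 13 from 102450716 to 102538172) already differed at D0 between the WT and K36M libraries. Its RPKM was 21.5, 48.9, and 78.1 in WT cells at D0, D2, and D7, and 7.19, 27.8, and 19.6 in K36M cells. Each K36M library was below the WT library of its day, 2.99-fold at D0, 1.76-fold at D2, and 3.97-fold at D7. Ctrl cells had 12.3 at D0 and 29.0 at D2, and KD cells had 15.6 and 13.0. The Ctrl library at D2 was 2.36-fold above that at D0, and the KD library was slightly below (log2 ratio -0.26, interval -0.36 to -0.16). The WT and Ctrl libraries differed 1.75-fold at D0 and 1.69-fold at D2, so the K36M value at D2 was close to that of Ctrl cells, a limit on reading the D2 difference. At D0 the Ctrl value of 12.3 lay between those of K36M and WT cells, which limits the D0 difference as well. With PPARγ, values were 7.48 and 16.4 in WT and 5.43 and 5.72 in K36M cells for DMSO and Rosi, and the K36M libraries differed by no more than counting error (log2 ratio 0.08, interval -0.08 to 0.23). Both transcripts of the gene in the files had values within 1.17-fold of each other in every library, so the files do not separate them.

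Of the AKT kinases, *Akt1* (NM_001165894, chromosome 12 from 113892032 to 113913095) had the highest RPKM of the 9 genes in most libraries and stayed within 2-fold over the course in the H3.3 cells. WT cells had 70.4, 58.5, and 68.7 RPKM, and K36M cells 73.5, 70.0, and 90.3. It was 101 and 55.1 in Ctrl and 82.9 and 35.6 in KD cells at D0 and D2. The DMSO and Rosi libraries had 130 and 62.3 in WT and 135 and 57.0 in K36M cells, so that *Akt1* was lower with Rosi in both backgrounds, 2.08-fold and 2.37-fold. *Akt2* (NM_001110208, chromosome 7 from 28376571 to 28425845), the form most tied to GLUT4 traffic in fat cells, had 9.82, 19.4, and 21.5 RPKM in WT cells, compared with 7.96, 13.1, and 13.8 in K36M cells. The WT change by D2 was 1.97-fold, just short of the threshold, and K36M libraries were lower than WT on each day, by 1.23-fold, 1.48-fold, and 1.55-fold. *Akt2* was 11.9 and 10.7 in Ctrl cells at D0 and D2 and 5.90 and 4.78 in KD cells, 2.02-fold and 2.23-fold lower. Hence it was higher at D2 in WT cells but not in Ctrl cells. In the PPARγ cells it was 11.4 and 13.5 in WT and 10.2 and 6.22 in K36M, with Rosi libraries 2.16-fold apart. *Akt2* made up at most 24.9% of the summed RPKM of both kinases, in WT cells at D2.

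*Slc2a4* (NM_009204, chromosome 11 from 69756045 to 69761690) was nearly absent before adipogenesis and abundant in a single library. In WT cells it had 0.0331 RPKM (2 reads) at D0, 0.816 (44 reads) at D2, and 41.6 (1564 reads) at D7. K36M cells had 0.0178 (1 read), 2.74 (97 reads), and 2.41 (83 reads). At D2 K36M cells were therefore 3.36-fold above WT (log2 ratio 1.75, interval 1.22 to 2.30), and at D7 they were 17.3-fold below (log2 ratio -4.11, interval -4.45 to -3.79). From D2 to D7 the transcript was 51.0-fold higher in WT cells and within counting error in K36M cells (log2 ratio -0.19, interval -0.63 to 0.25). Among the adipocyte markers, only *Adipoq* shared the turn of K36M cells from above WT at D2 to below it at D7. At D2, 4 of 6 were past 2-fold lower in K36M cells (*Cebpa*, *Cidec*, *Lpl*, and *Plin1*; median log2 ratio of the list -1.36), and only *Adipoq* had an interval above 0, with 10.6 against 6.16 RPKM in WT. At D7 all 6 were past 2-fold lower (median -3.51), and their part in the D7 result was not tested.

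No library of the knockdown experiment reached an *Slc2a4* RPKM of 1. The values were 0.215 (12 reads) and 0.527 (30 reads) in Ctrl and 0.163 (8 reads) and 0.261 (13 reads) in KD cells, and the KD to Ctrl log2 ratio at D2 was -1.02 with an interval of -2.08 to -0.03. With PPARγ, WT cells had 0.0815 (5 reads) with DMSO and 1.22 (57 reads) with Rosi, a log2 ratio of 3.91 (interval 2.60 to 5.58). K36M cells had 0.189 (13 reads) and 0.196 (7 reads), a difference that was not detectable at this depth (log2 ratio 0.05, interval -1.51 to 1.48). The Rosi library of WT cells at 24 h thus held far less *Slc2a4* than WT cells at D7, although these libraries come from different experiments.

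*Slc2a1* (NM_011400, chromosome 4 from 118781316 to 118809935) ran opposite to *Slc2a4* in the H3.3 cells. It was 58.5, 38.1, and 19.4 RPKM in WT cells at D0, D2, and D7, and 43.2, 28.4, and 38.6 in K36M cells. WT cells were thus lower at each step, whereas the K36M library at D7 was above that at D2 and 1.99-fold above WT at D7 (log2 ratio 0.99, interval 0.85 to 1.13). Ctrl cells had 23.9 and 25.0 and KD cells 31.2 and 46.0 at D0 and D2, a KD excess of 1.84-fold at D2. In the PPARγ cells it was 40.2 and 23.2 in WT and 24.5 and 19.9 in K36M for DMSO and Rosi. *Slc2a4* accounted for 0.0566%, 2.10%, and 68.2% of the summed RPKM of both transporters in WT cells and for 0.0413%, 8.80%, and 5.87% in K36M cells. In the other 8 libraries its share was at most 4.99%.

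**Figure D1:**
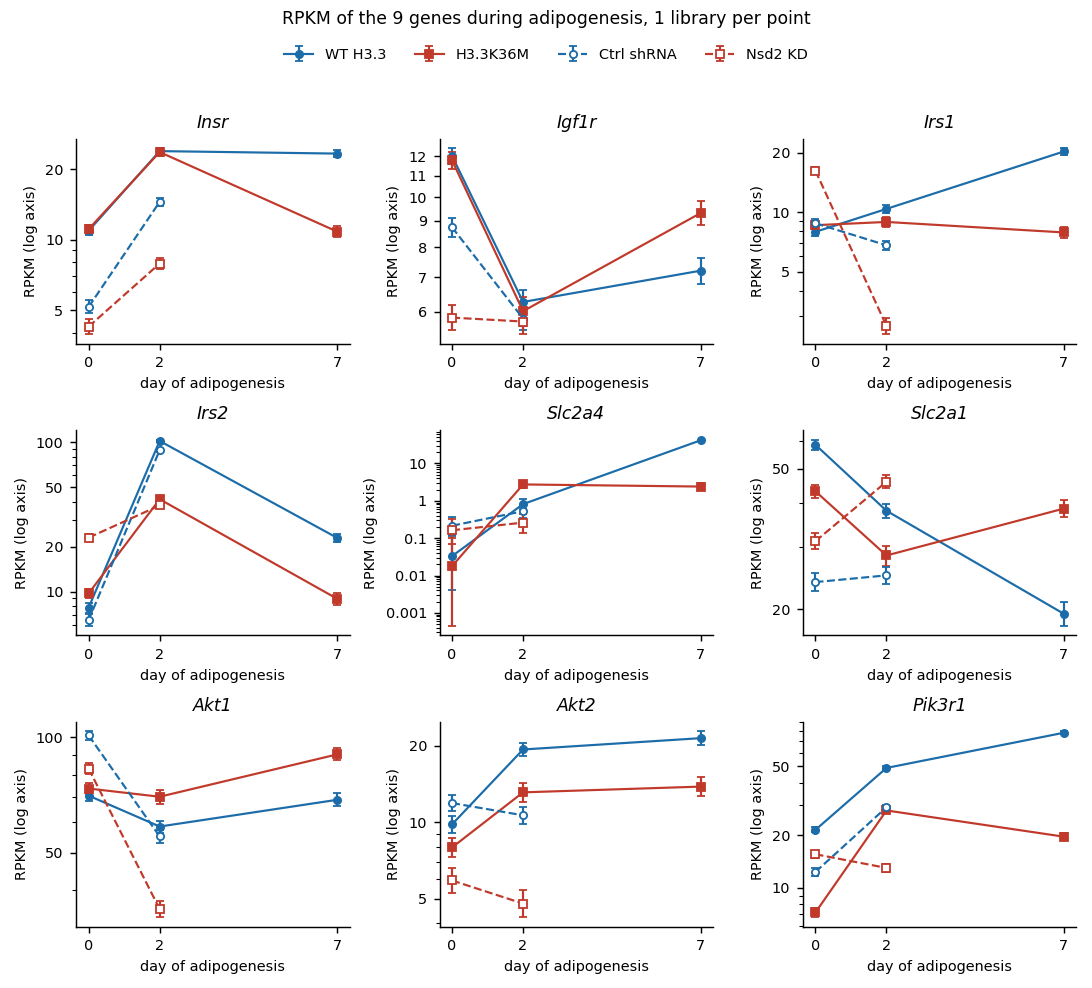
RPKM (log axes that differ between panels) of the 9 genes by day of adipogenesis in WT, K36M, Ctrl, and Nsd2 KD cells, with exact 95% Poisson intervals as bars and 1 library per point. *Irs2* peaks at D2 in WT cells (102) and reaches 88.4 in Ctrl cells at D2, their last day. *Slc2a4* reaches 41.6 in WT cells at D7 against 2.41 in K36M cells.

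**Figure D2:**
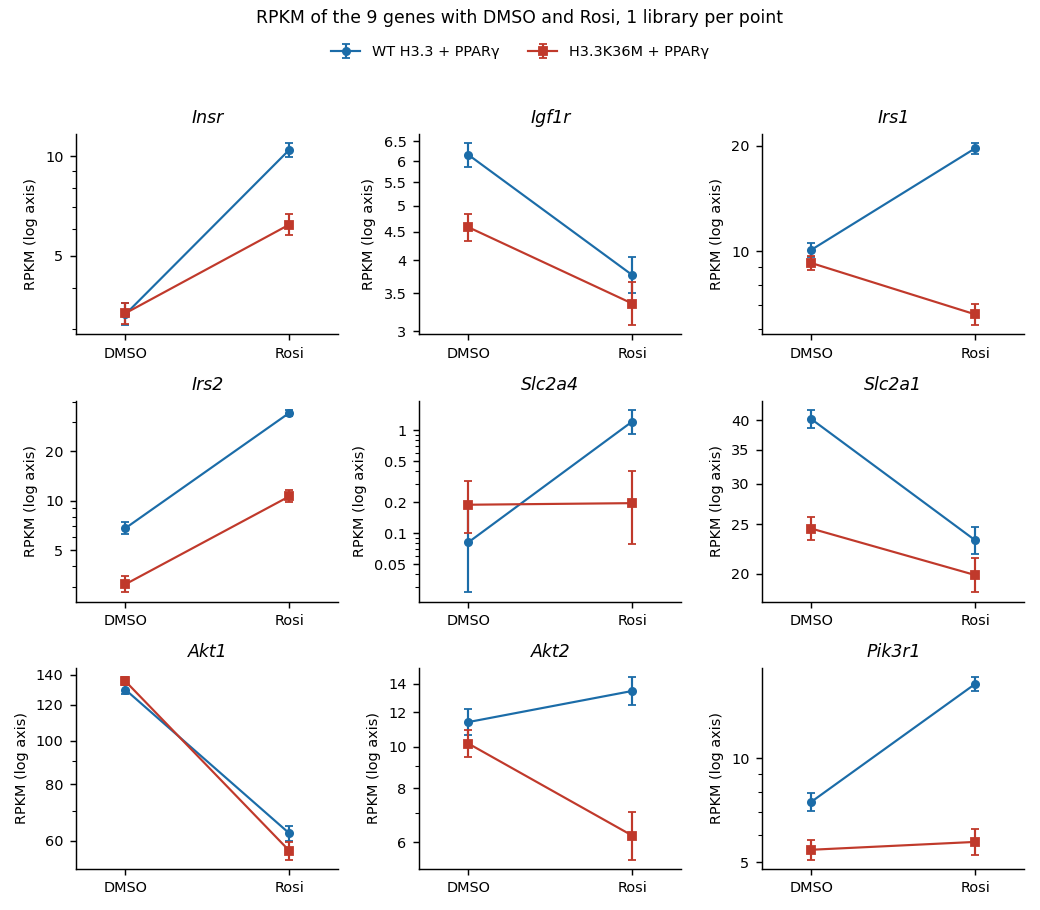
RPKM (log axes that differ between panels) of the 9 genes in WT and K36M cells with ectopic PPARγ, labelled DMSO and Rosi, with exact 95% Poisson intervals as bars and 1 library per point. *Akt1* lines run nearly together (130 to 62.3 and 135 to 57.0), while those of *Irs1* part (10.1 to 19.7 and 9.25 to 6.59).

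The comparisons were then read as counts against all genes. Because the members were chosen with earlier results of these data known, the counts are descriptions. The paper had already reported weaker induction in K36M cells of *Irs2* during adipogenesis, and of *Irs2* and *Slc2a4* (as *Glut4*) with Rosi. In mice that express K36M in fat, it reported lower *Irs1* and *Irs2* by qRT-PCR in white but not brown fat. It also reported weaker AKT phosphorylation after insulin in white but not brown fat. Those are tissues of adult mice, not the cells followed here. From D0 to D2 in WT cells, 3 of 8 counted members were past 2-fold (*Insr*, *Irs2*, and *Pik3r1*, all higher), against 26.7% of 12155 genes. The same 3 genes were higher in Ctrl cells, 3 of 8 against 27.4% of all genes, and in K36M cells they were joined by *Slc2a4*, 4 of 9 against 21.5%. In KD cells 2 of 8 were past 2-fold against 28.6%, and these were other genes, *Akt1* and *Irs1*, both lower. From D2 to D7, WT cells had 2 of 9 past 2-fold (*Slc2a4* higher, *Irs2* lower) against 20.8%, and K36M cells 2 of 9 (*Insr* and *Irs2*, both lower) against 22.7%. Each count lay within about 2 members of the number that the share of all genes would give. Courses that share a library, such as D0 to D2 and D2 to D7, are not independent.

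Between K36M and WT cells the count of members past 2-fold grew with time, and so did the share of all genes. The counts at D0 and D2 were near that share. It was 1 of 8 at D0 (*Pik3r1* lower) against 11.4% of all genes, 2 of 9 at D2 (*Irs2* lower, *Slc2a4* higher) against 15.6%, and 5 of 9 at D7 against 20.2%. At D7 the 5 were *Insr*, *Irs1*, *Irs2*, *Pik3r1*, and *Slc2a4*, all lower, whereas 8.46% of all genes were lower. The median log2 ratio of the 9 members at D7 was -1.11, and that of all genes was 0.12, so a rescaling to the median gene would make the members lower still. With ectopic PPARγ and DMSO, 1 of 8 was past 2-fold (*Irs2* lower) against 8.2%. With Rosi, 5 of 9 were (*Irs1*, *Irs2*, *Pik3r1*, *Akt2*, and *Slc2a4*, all lower) against 19.1% in either direction and 12.1% lower. There the members' median log2 ratio was -1.11, that of all genes -0.11, and all 9 counting intervals lay below 0. After median scaling 7 of 9 did, those of *Akt1* and *Igf1r* reaching 0. The share of all genes with intervals below 0 was not computed, so these interval counts have no background beside them. Adipocyte markers moved alongside, with sums for the Rosi libraries of 1259 RPKM (WT) and 325 (K36M), and for the DMSO libraries of 175 and 133, *Pparg* being ectopic in all 4, and their part in the result was not tested.

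Rosi and DMSO libraries themselves differed past 2-fold for 5 of 9 members in WT cells (*Insr*, *Irs2*, *Pik3r1*, and *Slc2a4* higher, *Akt1* lower) against 15.0% of all genes. In K36M cells 2 of 8 did (*Irs2* higher, *Akt1* lower) against 16.8%. *Irs1* at 1.95-fold in WT and *Insr* at 1.85-fold in K36M cells were just below the threshold. Whether the WT and K36M responses differ was not tested.

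Between KD and Ctrl cells, 2 of 8 members were past 2-fold at D0 (*Irs2* higher, *Akt2* lower) against 17.4% of all genes. At D2 there were 4 of 8 (*Irs1*, *Irs2*, *Pik3r1*, and *Akt2*, all lower) against 14.4% in either direction and 9.57% lower, with a median log2 ratio of -1.02 against -0.05 for all genes. *Irs1*, *Irs2*, and *Pik3r1* were higher in KD cells at D0 and lower at D2, *Slc2a1* was higher on both days, and *Igf1r* did not differ beyond counting error at D2 (log2 ratio -0.02, interval -0.13 to 0.09). Adipocyte markers summed to 49.6 and 38.5 RPKM at D0 and to 1231 and 128 RPKM at D2 in Ctrl and KD cells. Preadipocyte markers were lower in KD cells as well, with sums of 1912 and 501 RPKM at D0 and of 138 and 50.6 RPKM at D2, and 5 of 6 were past 2-fold lower on each day, *Dlk1* being higher. The part of either list in the result was not tested.

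**Figure D3:**
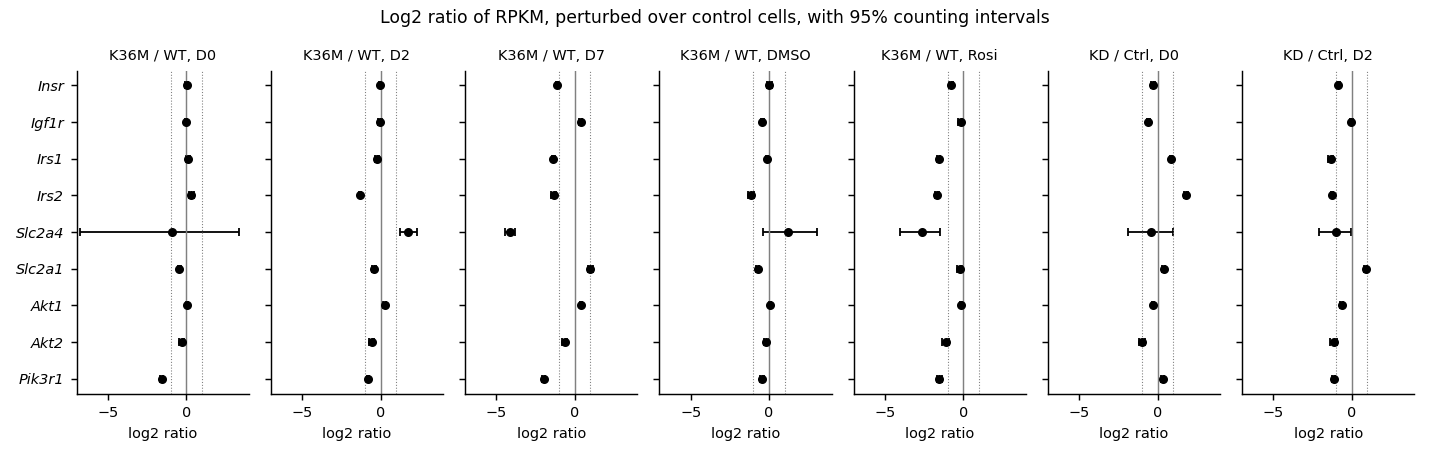
Log2 ratios of RPKM (x axes) for the 9 genes in the 7 comparisons of K36M with WT and of KD with Ctrl cells, with 95% counting intervals as bars and dotted lines at 2-fold. Ratios lie left of 0 for all 9 genes with Rosi, where the median of all genes is -0.11, and *Slc2a4* turns from 1.75 at D2 to -4.11 at D7.

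The only gauge of spread between unperturbed cultures was the comparison of WT with Ctrl libraries, which come from different experiments and vectors and was added after the values were seen. At D0, 2 of 8 members were past 2-fold (*Slc2a1* 2.45-fold and *Insr* 2.12-fold higher in WT) against 22.2% of all genes, and at D2 0 of 8 were, against 11.2%. Of the genes past 2-fold at D0, 68.1% were higher in WT, and 48.2% were after median scaling, which left *Insr* below the threshold. At D2 the differences reached 1.82-fold (*Akt2*). At D2, differences of the perturbed cells below about this size are no larger than those between the control libraries. Examples are *Akt2* at 1.48-fold and *Slc2a1* at 1.34-fold between K36M and WT. At D0 *Akt2* at 2.02-fold between KD and Ctrl cells was below the largest control difference, that of *Slc2a1* at 2.45-fold. It was above the difference of *Akt2* itself between Ctrl and WT cells, 1.21-fold. No Ctrl library was made at D7, so *Insr* at 2.16-fold between K36M and WT has no such gauge.

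**Figure D4:**
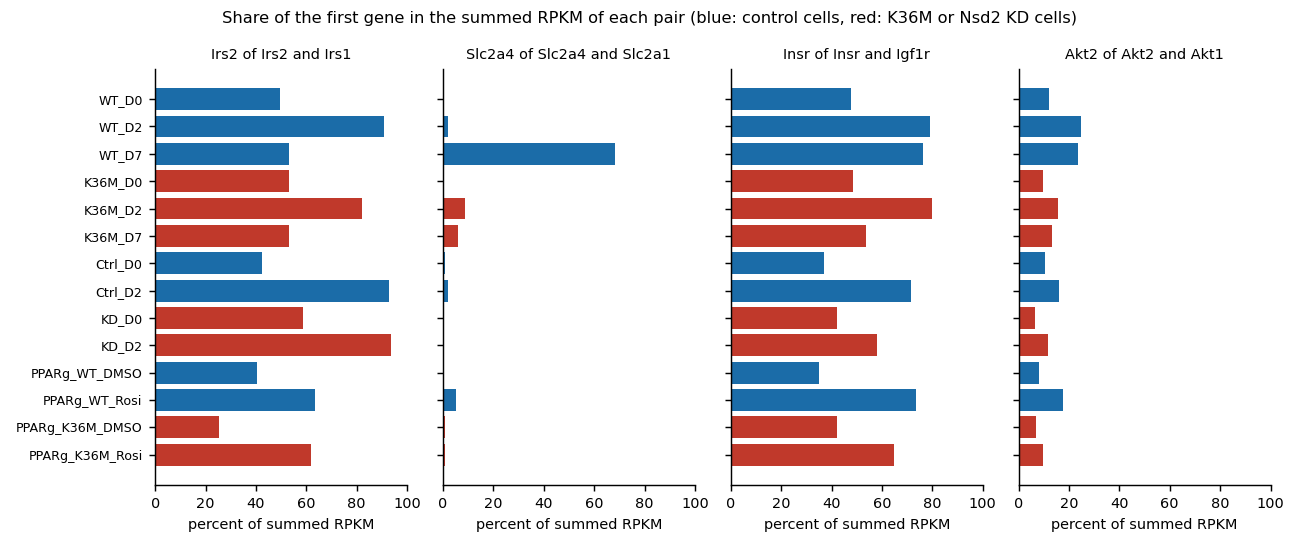
Share of the first gene in the summed RPKM (percent, x axes from 0 to 100) of each gene pair in the 14 libraries, with control cells in blue and K36M or Nsd2 KD cells in red. *Slc2a4* makes up 68.2% of its pair in WT cells at D7 and at most 8.80% in the other 13 libraries.

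A further 87 genes of the pathway, in 8 lists, placed the members in context. From D0 to D2, 13 of 78 counted genes were higher and 14 lower past 2-fold in WT cells, 34.6% against 26.7% of all genes, with a median log2 ratio of -0.06 against -0.01 for all genes. Of the genes past 2-fold the same way in WT and Ctrl cells, binding proteins of insulin-like growth factors stood on both sides. *Igfbp4* was 38.8 and 345 RPKM at D0 and D2 in WT and 6.59 and 336 in Ctrl cells, and *Igfbp2* and *Igfbp5* were also higher. *Igfbp7* was 408 and 84.1 in WT and 441 and 81.0 in Ctrl cells, and *Igfbp6* and the ligand *Igf2* were also lower.

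Of 12 inhibitors and other modulators of the receptor, WT cells had 4 lower and 1 higher past 2-fold at D2 than at D0, and Ctrl cells had 3 lower and 3 higher. *Grb14*, which blocks the receptor kinase, was 8.12 and 0.587 RPKM at D0 and D2 in WT and 9.26 and 0.177 in Ctrl cells. *Socs1* and *Enpp1* were also lower in both, and *Sh2b2*, which encodes the adaptor APS, was higher in both. *Grb10* and *Trib3*, named after their values were seen, were past 2-fold higher in Ctrl cells only, with log2 ratios of 1.46 and 2.99 against -0.06 and -0.25 in WT cells, a difference that was not tested. Hexokinase *Hk1*, the transporters *Slc2a6* and *Slc2a10*, *Pik3cd*, and *Rhoq* were lower in both. Higher in both were the GLUT4 vesicle genes *Sort1*, which encodes sortilin, and *Lnpep*, together with *Ralgapa2* and the AKT substrate *Pde3b*, a phosphodiesterase through which insulin restrains lipolysis. *Pde3b* was 4.71 and 107 RPKM in WT and 3.58 and 66.0 in Ctrl cells.

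Of the 87 genes, those past 2-fold the same way in both perturbations at D2 were *Pde3b*, *Sort1*, and *Ralgapa2*, all lower. *Pde3b* was 107 RPKM in WT and 40.8 in K36M, and 66.0 in Ctrl and 9.92 in KD cells. *Sort1* was 35.5 and 13.4, and 19.5 and 3.08. *Ralgapa2*, a subunit of the Ral GTPase-activating complex, was 10.1 and 3.16, and 6.20 and 2.86. The rule for naming them looked for genes that moved alike, so their direction is a description. In counts, 6 of 74 pathway genes were higher and 8 lower in K36M cells at D2, 18.9% past 2-fold and so near the 15.6% of all genes. At D7 10 of 80 were higher and 16 lower, 32.5% against 20.2%. With Rosi 6 of 73 were higher and 19 lower, 34.2% against 19.1% (median log2 ratio -0.46 against -0.11). In KD cells at D2 2 of 70 were higher and 13 lower, 21.4% against 14.4% (median -0.24 against -0.05).

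The genes whose RPKM followed each member most closely over the 14 libraries were sought among 8533 genes with a mean RPKM of at least 5. For *Slc2a4* these included *Thrsp* and *Sdha* (Pearson r of 0.97 and 0.92 on log2(RPKM + 1)), a likeness set largely by the WT D7 library. *Insr* was closest to *Atrn*, *Kitl*, and *Ddhd2* (0.98, 0.97, and 0.96), *Irs1* to *Scarb1* (0.90), *Irs2* to *Fam160a2* (0.89), *Pik3r1* to *Fam214a* (0.94), *Akt1* to *Pitpna* (0.96), *Akt2* to *Mtfr1l* (0.92), *Igf1r* to *Tmod3* (0.92), and *Slc2a1* to *Ap1ar* (0.87). The libraries share cells and experiments, so these values describe the libraries only.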

How the data were processed

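RNA-Seq was analysed for 14 libraries, 1 per condition, and the ChIP-Seq samples were not analysed here. The authors deposited RPKM values per RefSeq transcript, that is, reads scaled to transcript length and mapped reads, and the RNA-Seq aligner and counter are not given in the sources used here (the submitters' processing notes name CASAVA 1.8.2, SICER, and mm9). RefSeq accessions were matched to gene symbols for 28436 of 29082 transcripts (97.8%), and 1 transcript was kept per gene. The mm9 coordinates of the members came from GENCODE M1. Whole reads could be recovered for 26945 of the 26946 transcripts detected in 2 or more libraries, and gave exact Clopper-Pearson intervals of each ratio. The tolerance was 0.001 reads and widened in proportion to the highest read count for deeply read transcripts. A ratio over 2-fold was called where either library had an RPKM of 1 or more, and no test was possible without replicates. The recovery and intervals were tested on simulated data.

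The alternatives were no minimum, RPKM of at least 1 in both libraries, pseudocounts of 0.1 and 1, median scaling, the sum of transcripts, the longest transcript, and an interval that excludes 1. The members and lists were chosen with earlier results of these data known. Other genes were named when past 2-fold the same way in both perturbations at D2, or in both control courses from D0 to D2, and the 3 genes most like each member by Pearson r were sought. Some genes that meet these rules are not reported here. Transcripts of a gene share exons, so their values are not independent. Python 3.11.15, pandas 2.3.3, and scipy 1.17.1 were used.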

Additional observations from a re-analysis of the deposited data

Results flagged for a closer look

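In 17 of 81 member comparisons the log2 ratio had opposite signs under the same contrast on different days or in different cells, with counting intervals clear of 0 on each side, and in 8 of these at least 1 side was past 2-fold. The 8 are given first. Each side is 1 pair of libraries, and the differences were not tested. The same count was not made for all genes, so 17 and 8 cannot be called many or few. Several comparisons use the same libraries and are not independent. Both *Pik3r1* entries below, for instance, come from the same Ctrl and KD libraries. *Pik3r1* went from D0 to D2 by 1.24 in Ctrl and -0.26 in KD cells, and KD over Ctrl it was 0.34 at D0 and -1.16 at D2. *Irs2* in K36M over WT cells started at 0.31 on D0 and was -1.29 on D2 and -1.35 on D7, and in KD over Ctrl cells it went from 1.83 (D0) to -1.23 (D2). *Irs1* went from 0.11 (D0) to -1.36 (D7) in K36M over WT cells, and from 0.88 (D0) to -1.36 (D2) in KD over Ctrl cells. *Slc2a4* in K36M over WT cells was 1.75 at D2 and -4.11 at D7. The other 9 were below 2-fold on both sides. They include *Slc2a1* in K36M over WT cells (-0.44 at D0, -0.42 at D2, and 0.99 at D7) and, for Rosi over DMSO, *Irs1* (0.97 in WT, -0.49 in K36M) and *Akt2* (0.24 and -0.71). From D2 to D7 they include *Irs1* (0.96 in WT, -0.18 in K36M), *Pik3r1* (0.67 and -0.50), and *Slc2a1* (-0.97 and 0.44). For scale, the log2 ratios of WT over Ctrl cells at D0 were -0.14 for *Irs1* and 0.28 for *Irs2*, similar in size to the K36M values at D0.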

How the results depend on the processing

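Of 136 counts of members recomputed over 17 comparisons and 8 alternatives, 127 stayed within 1.5 times. Of 1149 single ratios 1092 stayed within their counting interval, and 0 of those past 2-fold changed sign. Ratios below 2-fold were not checked for a change of sign. A changed minimum or the interval rule leaves a ratio itself unchanged, so under these settings it stayed by construction. Asking for RPKM of at least 1 in both libraries left 1 member past 2-fold from D2 to D7 in WT cells and 1 in K36M over WT at D2, since *Slc2a4* dropped out by construction. For K36M over WT with DMSO, no minimum gave 2 and a pseudocount of 1 gave 0. For KD over Ctrl at D0, a pseudocount of 1, median scaling, and the sum of transcripts each gave 1, because *Akt2* at 2.02-fold fell below the threshold. For WT over Ctrl at D0, a comparison added after seeing the data, a pseudocount of 1 and median scaling each gave 1. Median scaling moved the median gene by 0.12 (log2) for K36M over WT at D7 and by 0.24 and 0.11 for WT over Ctrl at D0 and D2. In WT cells it also called *Akt2* higher at D2 than D0, as did the sum of transcripts, and *Slc2a1* lower at D7 than D2. No paired analysis was possible because each condition had 1 library and the labels carry no replicate numbers. Over all genes, where the main counts were 959 to 3372, dropping the minimum gave 2.10 to 7.02 times as many (4790 to 8498), RPKM of at least 1 in both libraries 0.439 to 0.724 times (421 to 2410), and a pseudocount of 1 gave 0.507 to 0.749 times (486 to 2430), so the background shares depend on the floor. With few reads, *Slc2a4* ratios below an RPKM of 1 are limited by depth.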
